A study of Rattus norvegicus with 256 samples.

Results

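The cytosolic ribosomal proteins were followed across the organs of the rat. Their probesets, the groups of short probes that stand for 1 transcript on an array, were taken by gene symbol: a single symbol made of Rpl, Rps or Rplp and a number, without the S6 kinases, whose symbols also begin with Rps. This gave 52 of 31042 probesets for 47 genes, 33 of the large (60S) and 14 of the small (40S) subunit. Standard subunit proteins made up 45 probesets for 41 genes, called core members below, and the other 7 probesets stood for 6 paralogues, Rpl3l, Rpl7l1, Rpl26l1, Rpl39l1, Rps4y2 and Rps27l. Another 36 probesets that list a ribosomal protein beside other symbols, Rps18 among them, were not counted.

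The study set male against female gene expression in normal rat organs, on 256 arrays of 31 organs, 26 of them somatic and 5 found in 1 sex (testes, epididymis, prostate, ovary and uterus). All groups came from untreated Han Wistar-derived rats (AlpkHsdBrlHan:WIST), 5 males and 5 females, whose age is not given in the sources used here. Arrays of 1 group are different animals, arrays of different organs are largely the same animals, and the 57 groups of organ and sex hold 2 to 5 arrays. RNA came from whole organs, so that fewer cells of a type and less of an RNA per cell cannot be told apart in any value below.

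Values are on the log2 scale of the deposited table, between 1.02 and 15.83, with array medians between 3.86 and 4.45. A mean above a signal of 100.4 before the log, the limit used in the methods, was taken as expressed. No pair of arrays was identical. Markers of the organs were among the 3 highest of the 31 organs in most of them, whereas Myh11 ranked 10 in the aorta, Muc2 ranked 4 in the caecum, Fabp1 and Fabp2 ranked 4 in the duodenum and no marker was measured for bone marrow or thymus. In 4 arrays Xist and Eif2s3y were at odds with the labelled sex (aorta male 3, bone marrow male 5, bone marrow female 2 and heart male 5), and the core level and the members called in these organs are given with and without them.

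A ribosome joins a small subunit, which reads the mRNA, to a large subunit, which forms the peptide bond, and each protein of the set is normally present once per ribosome. Cells that grow or divide make many ribosomes. The mRNAs of most ribosomal proteins and of the elongation factors begin with an unbroken run of pyrimidines, the terminal oligopyrimidine (TOP) tract, through which their translation follows nutrient and growth signals. A few ribosomal proteins have paralogues with a narrow tissue range, such as RPL3L of striated muscle and RPL39L of the male germ line.

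The start sites of the genes that the results turn on are printed because that tract, where present, begins at the start of the mRNA. Each line gives 30 bases of the RefSeq annotation of assembly GRCr8 on the strand of the gene, 15 before and 15 from the annotated start, and capitals mark unbroken runs of at least 8 C or T.
Rplp0, chr12:46718376-46718405, minus strand: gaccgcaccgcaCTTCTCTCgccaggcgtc
Rpl13a, chr1:104748899-104748928, minus strand: CCTCTTCCTTTCCTaggcggctgccgaaga
Rpl22, chr5:168117946-168117975, plus strand: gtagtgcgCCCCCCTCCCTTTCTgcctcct
Rps3, chr1:163195762-163195791, minus strand: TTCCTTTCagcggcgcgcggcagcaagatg
Rps24, chr16:96502-96531, plus strand: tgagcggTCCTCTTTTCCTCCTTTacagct
Rpl3, chr7:113507976-113508005, minus strand: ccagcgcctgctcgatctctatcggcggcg
Rpl3l, chr10:14258431-14258460, plus strand: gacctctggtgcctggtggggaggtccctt
Rpl39l1, chr10:5966607-5966636, minus strand: actgccaggccgtcccgctatcctggtgtg
Rps4y2, chr4:183000898-183000927, plus strand: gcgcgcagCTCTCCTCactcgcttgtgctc
Rps27l, chr8:76443643-76443672, plus strand: gtttattcatttgtcattatttgtggtgtc
A start site was found for 40 of the 47 genes. A run of at least 8 C or T lay in this window for 22 of 34 core genes (64.7%), for 1 of 6 paralogues (Rps4y2) and for 2098 of 18999 protein-coding genes (11.0%). On the opposite strand, read as a run of A or G, it lay in 1 of the 34 core genes and in 12.2% of all genes. The longest run of the core genes had a median of 9.5 bases, with a range of 3 to 20 and the longest in Rpl34, against a median of 4 over all genes. The window also holds bases before the annotated start. The runs of Rpl13a and Rps3 lie wholly there, as do those of Rpl21, Rpl23, Rpl5, Rpl7a and Rps15a, and so outside the annotated mRNA. A counted run is therefore not in itself a TOP tract. A match is a description of these letters, and a window without one, such as that of Rpl3, says nothing of where transcription of the gene starts in a given organ.

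Most of the set was expressed everywhere. In 39 of 52 probesets the mean was above the expression limit in every organ, and in 47 it was so in at least 1 organ. The 37 core probesets expressed in all organs had means over the organs from 12.52 to 14.61, with that of Rps29, a small-subunit protein, at the top. The means of such a core probeset spanned 1.81 log2 units over the 31 organs at the median, with a range from 1.01 to 3.11 units. Over the 3587 probesets of the array expressed in all organs the median span was 2.88, and over the 220 of these with a mean above 12 it was 2.15. Of the other core probesets the second of Rpl3 had a mean of 8.13 over the organs, and the rest were dim. Those of Rpl28, Rpl30, Rps13 and 1 of the pair for Rpl14 passed the limit in no organ, and neither did the paralogue Rpl26l1.

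Where a gene had 2 probesets they did not always move together. Over the 31 organ means the pair for Rpl3 had a Pearson r of 0.91, that for Rpl7l1 0.81 and that for Rps24 0.80, against 0.38 for Rpl7 and 0.04 for Rpl14. In Rpl14, Rpl7 and Rps24 the dimmer probeset averaged 2.47, 6.26 and 5.75 beside 12.52, 13.42 and 13.98 for the brighter. Results of a dim probeset are therefore named as such below.

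The core members rose and fell together from organ to organ. As a measure of this, the relative level of an array was taken as the median over the 45 core probesets of the value minus the mean of that probeset over the organs, with 0 standing for the average organ. It was lowest in the testes, with -0.90 ± 0.12 (SD, n = 4), then in the liver (-0.79 ± 0.10, n = 9), heart (-0.66 ± 0.20, n = 7), brain (-0.66 ± 0.16, n = 10), gastrocnemius (-0.56 ± 0.11, n = 6) and aorta (-0.55 ± 0.18, n = 10). It was highest in the mandibular lymph node (0.69 ± 0.09, n = 9), mesenteric lymph node (0.67 ± 0.06, n = 8) and thymus (0.67 ± 0.03, n = 8), followed by the spleen (0.54 ± 0.04, n = 8), uterus (0.49 ± 0.03, n = 5) and bladder (0.47 ± 0.06, n = 8). The testes arrays lay between -0.99 and -0.73 and those of the liver between -0.93 and -0.62, so that these neighbours overlapped. The arrays of both kinds of lymph node and of the thymus, from 0.49 to 0.79, also overlapped among themselves and lay above every array of the 6 lowest organs. The lowest and highest organ differed 3.06-fold when the median was taken over organ means. Within an organ the SD over arrays was 0.03 to 0.25, highest in the duodenum. Without the arrays at odds with their labels the level was -0.68 ± 0.20 (n = 6) in the heart, -0.53 ± 0.18 (n = 9) in the aorta and 0.26 ± 0.03 (n = 7) in the bone marrow, the last as with them.

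**Figure D1:**
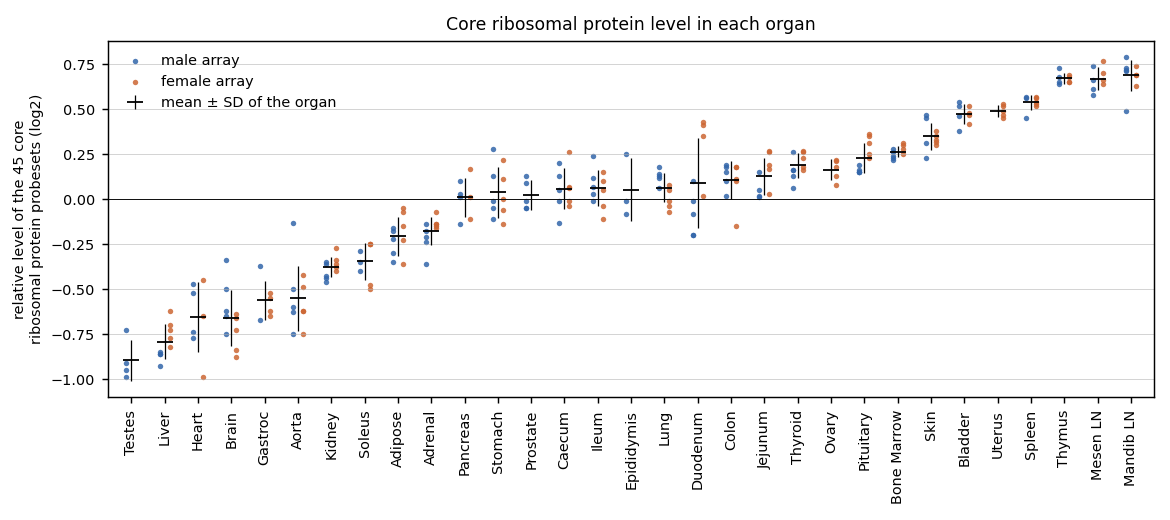
Relative level of the 45 core ribosomal protein probesets in each array, in log2 units, for the 31 organs. Organs are ordered by the median over the core probesets of the organ means. Each point is 1 array (blue male, orange female), and black marks are the mean and SD of the organ. The lymph nodes and thymus, up to 0.79, stood apart from the testes, liver, heart and brain, down to -0.99.

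Scaling moved this order in part. Over all probesets of the array, the median difference of an organ from the other organs was -0.17 (brain) to 0.03. Centring each array on its median moved the core level of an organ by up to 0.25, and quantile normalization by up to 0.19, both in the brain. Changes below are relative to shifts of that size. With each array centred on its median the brain was lowest, at -0.88, and the liver stood at -0.59. With quantile normalization the testes, at -1.01, and the liver, at -0.94, were lowest and the brain stood at -0.44. The sign changed in 1 organ under quantile normalization and in 2 under centring, all among the organs close to 0.

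The subunits followed each other, as the median relative levels of 32 large-subunit and 13 small-subunit probesets had a Pearson r of 0.97 over the 31 organ means. They differed most in the testes, with -1.03 for the large and -0.59 for the small subunit, and without the testes r was 0.99. Each core probeset that was expressed in all organs had an r of 0.85 to 0.98 with the relative level, at a median of 0.94. All of these points share the same arrays. Other bright probesets shared the pattern as well. The median over 183 probesets with means above 12, outside the 52 members, had an r of 0.87 with it. That over all expressed probesets had an r of 0.71. Ribosomal protein probesets with several symbols or under other names were not taken out of the 183, and their part in this r was not tested.

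**Figure D2:**
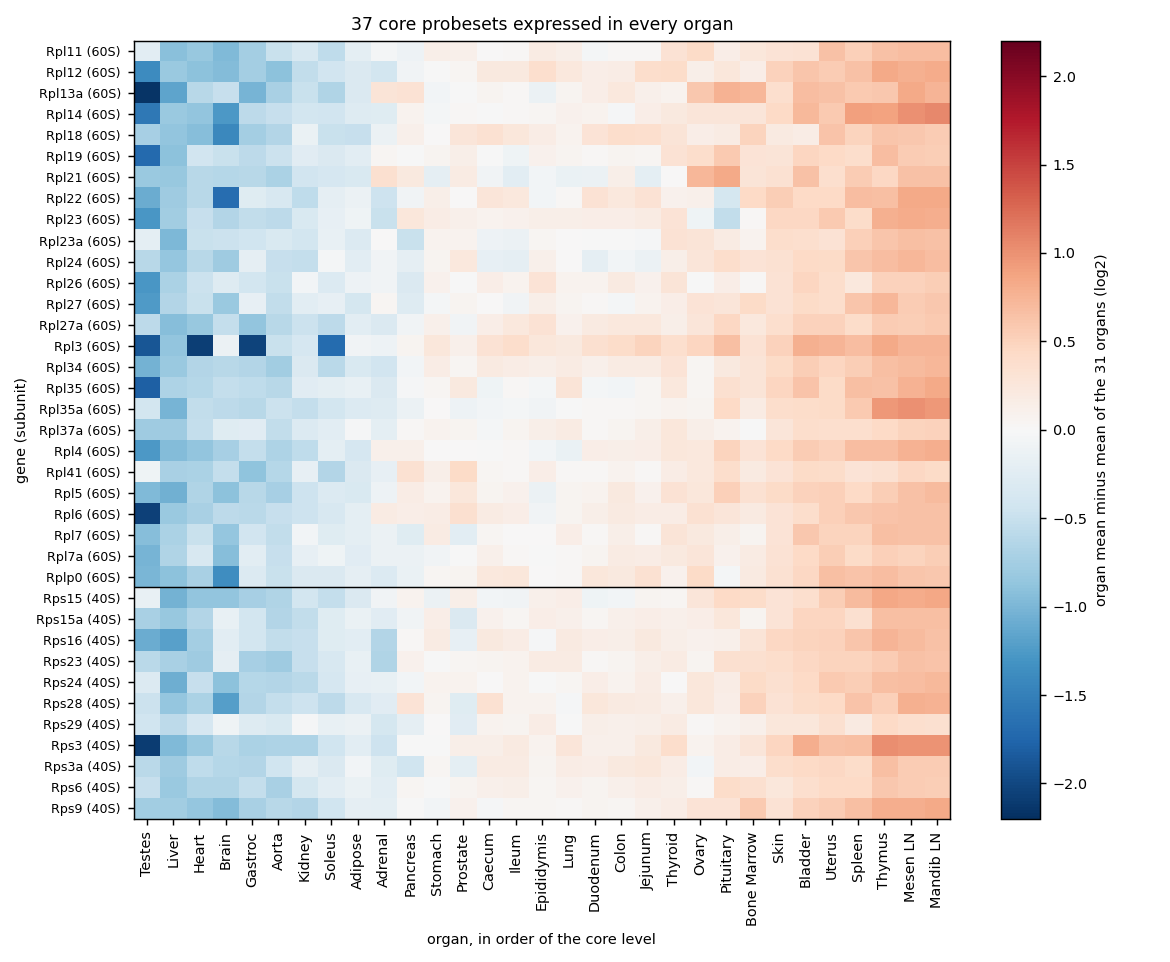
Difference of the organ mean from the mean of the 31 organs, in log2 units (colour), for the 37 core probesets expressed in every organ, with probesets as rows by subunit and the 31 organs as columns in the order of the relative level. Most rows ran from low values in the testes and liver to high values in the lymph nodes, with Rpl3 low also in heart, gastrocnemius and soleus.

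Each organ was then compared with the mean of the other organs in limma, and a call asked for 3 things: more than a 2-fold difference, an expressed level on the higher side and an adjusted p below 0.05. By this rule 29 of 52 probesets were lower in at least 1 organ, beside 27.1% of all probesets of the array. Higher calls went to 12 of 52, beside 60.2% of all probesets, and of these 6 stood for paralogues, 3 were dim probesets (of Rps24, Rpl7 and Rpl39) and 3 were bright core probesets (Rps3, Rpl14 and Rpl35a). At 1.5-fold in place of 2-fold, 42 of the 52 were higher in at least 1 organ, beside 63.1% of all probesets, so that most differences of core members were under 2-fold.

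In the testes 19 of 52 were lower (13.6% of all probesets). Of the 37 core probesets expressed in every organ all were below the other organs as deposited and with quantile normalization, and 36 with each array centred on its median. Rpl13a, a large-subunit protein often used as a reference gene, measured 10.93, 11.20, 11.19 and 11.12 in the 4 testes arrays. All of these lay below each of the 9 liver arrays, the next lowest organ, at 11.82 to 12.33. The difference from the other organs was -2.23 (SE 0.11, adjusted p = 4.81e-48). Rps3, a protein at the mRNA entry site of the small subunit, measured 11.14, 11.38, 10.96 and 10.96 and differed by -2.16 (SE 0.08, adjusted p = 1.02e-65). Rpl6 measured 11.03, 11.29, 11.04 and 10.98 and differed by -2.12 (SE 0.06, adjusted p = 5.07e-81). These 3 and Rpl3, with -1.94, fell most. Rpl35, Rpl19 and Rpl14, all of the large subunit, followed with -1.85, -1.76 and -1.64.

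The fall in the testes was uneven. Rps6, the small-subunit protein phosphorylated by the S6 kinases, measured 13.02 to 13.47 there and was not called. Rpl41, Rps15, Rpl23a, Rpl11 and Rps24 (bright probeset) lay 0.84, 0.78, 0.73, 0.70 and 0.63 above the value that the core relative level of the testes gave for them. Ribosomal proteins under other names moved as well: Rack1, a scaffold on the small subunit, differed by -2.67, and Rpsa by -2.01. Over the alternative settings the difference of Rpl13a stayed between -2.33 and -2.09, that of Rps3 between -2.26 and -2.02 and that of Rpl6 between -2.22 and -1.98.

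In the brain 7 of 52 were lower (8.35% of all), among them the stalk protein Rplp0. Of the 37 core probesets expressed in every organ all were below the other organs, also with centring, and 31 with quantile normalization. Rpl22, which binds RNA and has a close paralogue of its own, ranged from 11.15 over a median of 11.44 to 11.78 in the 10 brain arrays, all below the testes, the next organ, at 11.79 to 12.20. It differed by -1.73 (SE 0.05, adjusted p = 1.71e-87). Rplp0, from which the stalk of the large subunit is built and which also serves as a reference gene, ranged from 11.86 over 12.14 to 12.46 and differed by -1.42 (SE 0.04, adjusted p = 1.85e-78). Rpl18, Rpl14, Rps28 and Rpl11 were the other core members called, with -1.47, -1.30, -1.25 and -1.01. With each array centred on its median 18 members were called in the brain, with female arrays alone 14, and without an expression threshold 12.

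In the liver 8 of 52 were lower (5.93% of all), and all 37 core probesets expressed in every organ lay below the other organs under each of the 3 scalings. Rps16 had a median of 12.26 over 9 arrays, the highest of which was at 12.64. The liver overlapped with the testes, at 11.97 to 12.78, and lay below the adrenal, at 12.66 to 12.92. Rps16 differed by -1.24 (SE 0.05, adjusted p = 1.22e-56). Rpl13a, Rps24 (bright probeset), Rpl5, Rpl35a, Rps15, Rpl23a and Rps3 were called with -1.20 to -1.01. Rps6 ranged from 12.77 over 12.90 to 13.18 and differed by -0.87 (SE 0.04, adjusted p = 5.58e-47), under the 2-fold limit. The number of calls rested on the scaling, as quantile normalization gave 21 and centring 1.

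The lymphoid organs stood at the other end. In the mandibular lymph node, the mesenteric lymph node and the thymus all 37 core probesets expressed in every organ lay above the other organs under each of the 3 scalings. Calls were few because most differences were under 2-fold: 4 of 52 in the mandibular lymph node (8.27% of all), 4 in the mesenteric lymph node (7.63%) and 3 in the thymus (11.9%). At 1.5-fold they were 32 (13.3% of all), 30 (12.7%) and 32 (17.2%). Quantile normalization left 1 call in each of the 3 organs, and centring left 1 in the mesenteric lymph node.

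Rps3 was called in all 3. It ranged from 13.97 over a median of 14.26 to 14.32 in the mandibular lymph node, from 13.99 over 14.19 to 14.34 in the mesenteric lymph node and from 13.95 over 14.26 to 14.37 in the thymus. The 3 organs overlapped throughout and lay more than 1 unit above every liver array, at 11.95 to 12.47. The differences from the other organs were 1.03, 1.03 and 1.05. Rpl14 (bright probeset), with 1.08 and 1.03, was called in both kinds of lymph node, Rpl35a with 1.04 in the mesenteric one. Rpl39, a short protein that lines the exit tunnel of the large subunit, was called in the mandibular one at a mean of 6.68, which is at the expression limit.

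Rps24 is a small-subunit protein mutated in some patients with Diamond-Blackfan anaemia. Its dim probeset was called in both kinds of lymph node, the spleen, thymus, uterus and bladder, but not in the aorta, stomach, colon or bone marrow. It ranged from 7.90 over 8.16 to 8.47 in the mandibular lymph node, from 7.68 over 8.04 to 8.77 in the mesenteric lymph node, from 7.43 over 7.68 to 8.44 in the spleen and from 6.88 over 7.38 to 7.69 in the thymus, whereas the brain ranged from 3.40 to 3.96. The differences were 2.43, 2.50, 2.11 and 1.62, with 1.70 in the uterus and 1.13 in the bladder. The bright probeset of Rps24 was called in none of these. The dim probeset of Rps13 had differences of 3.03, 2.98 and 2.63 in the mandibular lymph node, mesenteric lymph node and thymus, at organ means of 6.51, 6.45 and 6.12 that missed the expression limit.

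Markers of lymphocytes moved with the high end of the set. Of 5 listed, 3 were measured, and their summed level in log2 units was 13.33 to 14.24 in the arrays of the mandibular lymph node, 12.97 to 14.02 in the mesenteric lymph node, 13.69 to 14.38 in the thymus and 13.40 to 14.32 in the spleen. In the uterus it was 7.60 to 8.85 and in the bladder 5.95 to 7.64, where the core level was high as well, and in the testes 5.07 to 5.54. Their part in the result was not tested.

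Rpl3 and its paralogue Rpl3l moved in opposite directions in striated muscle. Rpl3, which reaches towards the peptidyl transferase centre of the large subunit, ranged from 11.39 over a median of 11.59 to 11.99 in the heart, from 11.16 over 11.57 to 12.22 in the gastrocnemius and from 11.77 over 11.92 to 12.26 in the soleus. The testes, at 11.59 to 11.85, were as low, and the next organ, the liver, lay above all of these at 12.59 to 13.15. The differences from the other organs were -2.15 in the heart (SE 0.05, adjusted p = 2.25e-93), -2.09 in the gastrocnemius (SE 0.06, adjusted p = 3.53e-82) and -1.77 in the soleus (SE 0.05, adjusted p = 2.67e-82). The second probeset of Rpl3 fell as well, by -1.26, -1.38 and -1.45. Without the heart array at odds with its label the difference of Rpl3 in the heart was -2.14.

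Rpl3l ranged from 11.69 over a median of 11.73 to 12.12 in the heart, from 12.11 over 12.33 to 12.51 in the gastrocnemius and from 12.05 over 12.27 to 12.66 in the soleus. These arrays were all above those of any other organ, and the gastrocnemius and soleus overlapped. The differences were 8.48 in the gastrocnemius (SE 0.16, adjusted p = 2.38e-115), 8.50 in the soleus (SE 0.14, adjusted p = 2.16e-129) and 7.94 in the heart (SE 0.14, adjusted p = 2.84e-120). Without the heart array at odds with its label the last was 7.90. Over the 31 organ means Rpl3 and Rpl3l had an r of -0.57.

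Rpl3l was also called in the skin, thyroid and bone marrow, with no fall of Rpl3. It ranged from 8.68 over 9.78 to 10.69 in the 9 skin arrays, from 5.84 over 9.09 to 10.52 in the 10 thyroid arrays and from 6.69 over 7.72 to 8.31 in the 9 bone marrow arrays. In the remaining organs no array was above 4.35. The differences were 5.94 in the skin, 4.87 in the thyroid and 3.56 in the bone marrow (SE 0.13, adjusted p = 1.73e-69), and 3.67 in the last without its arrays at odds with their labels. Rpl3 ranged there from 14.08 to 14.33, from 13.77 to 14.21 and from 13.88 to 14.11.

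Markers of striated muscle were high in the skin and thyroid and low in the bone marrow. All 9 listed were measured. Their summed level in log2 units was 15.96 to 16.25 in the heart, 16.52 to 16.78 in the gastrocnemius, 16.20 to 16.54 in the soleus, 15.51 to 15.96 in the skin and 13.26 to 15.79 in the thyroid, and their part in the Rpl3l values of skin and thyroid was not tested. The bladder, at 13.56 to 13.80, lay within the range of the thyroid with Rpl3l at 2.46 to 2.55. The aorta reached 11.68 with Rpl3l at 2.56 to 2.72. A summed level can rest on a few bright markers. Of the 9, 2 were called higher in the bladder, 1 in the aorta, 4 in the skin and 6 in the thyroid. Their median differences from the other organs were -0.96, -0.18, 0.52 and 5.33 in that order. In the bone marrow the summed level was 6.39 to 8.03, beside 5.74 to 6.01 in the kidney and 5.93 to 6.39 in the spleen. Of the defining markers, Ckm measured 3.46, Myh4 4.21, Actn3 2.56 and Tnnt3 3.39 in the mean of the bone marrow, all under the expression limit.

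**Figure D3:**
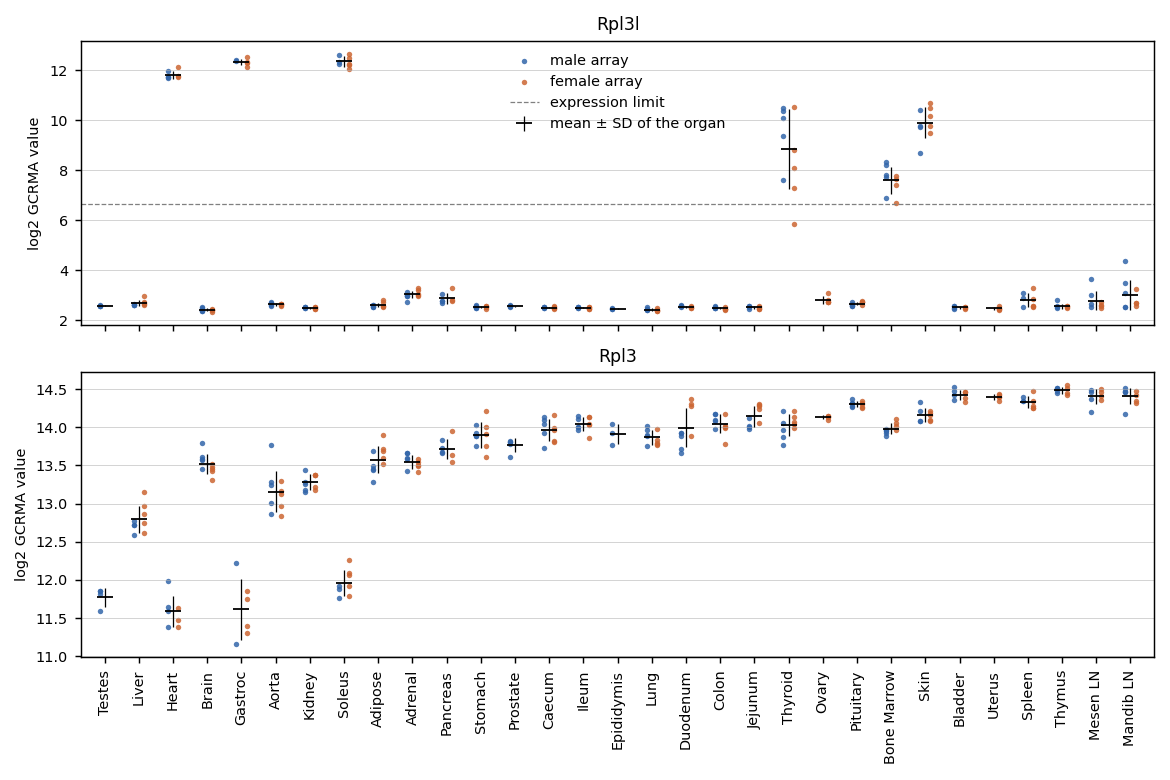
Levels of Rpl3 and of Rpl3l (log2, GCRMA) in every array of the 31 organs, in the order of the core level; each point is 1 array (blue male, orange female), black marks are the mean and SD of the organ, and the dashed line is the expression limit. Heart, gastrocnemius and soleus had Rpl3l between 11.69 and 12.66 with Rpl3 at 11.16 to 12.26, whereas in skin, thyroid and bone marrow Rpl3 stayed at 13.77 to 14.33.

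Other members were called in striated muscle. In the heart 4 of 52 were lower (4.88% of all), both probesets of Rpl3, Rpl18 with -1.02 and Rps27l with -1.35. Without the female arrays numbered 2 there were 9, and without the heart array at odds with its label 4, with Rpl18 at -1.03, Rps27l at -1.50 and the second probeset of Rpl3 at -1.17. In the gastrocnemius 4 were lower (6.47%), both probesets of Rpl3, Rpl13a with -1.03 and Rpl7l1 with -1.16, and without probesets shared between transcripts there were 2. In the soleus 3 were lower (5.63%), both of Rpl3 and Rpl7l1 with -1.10. A like exchange was seen in the elongation factor that brings aminoacyl-tRNA to the ribosome: Eef1a1 fell by 1.96 in the gastrocnemius, 1.70 in the heart and 1.02 in the soleus, and its paralogue Eef1a2 rose by 7.62, 6.86 and 7.53. Without the heart array at odds with its label the heart values were -1.72 and 6.89. Eef1a2 rose as well in the brain by 6.99, the pituitary by 6.54, the skin by 4.50 and the thyroid by 3.93. Of the 3 probesets with organ patterns most like Rpl3l among 15745 with 1 symbol and an expressed level, Trdn, a protein of the muscle calcium store, had an r of 0.961, Trim72 0.96 and Dhrs7c 0.959 over 31 organs.

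Rpl39l1, the paralogue of Rpl39, was high in the testes and the pituitary. It measured 14.16, 14.06, 13.79 and 13.80 in the testes and ranged from 10.36 over a median of 11.12 to 11.43 in the 10 pituitary arrays. The arrays of these organs overlapped neither with each other nor with the thyroid, the next in order, at 4.08 over 5.68 to 7.11. The differences from the other organs were 10.52 in the testes (SE 0.29, adjusted p = 1.69e-87) and 7.53 in the pituitary (SE 0.19, adjusted p = 1.77e-95). In the thyroid it was 2.10 (SE 0.19, adjusted p = 1.06e-21), with a mean of 5.81 that was not counted as expressed. The probesets most like it in pattern were those of Ypel1 with an r of 0.95, Cetn4 with 0.895 and Pla2g2c with 0.894 over 31 organs.

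Germ cell markers did not follow Rpl39l1 in the pituitary. Of 8 listed, 6 were measured, and their summed level was 17.14 to 17.37 in the testes but 5.33 to 5.51 in the pituitary, beside 5.34 to 5.58 in the ovary. Their summed level was raised in other organs, with and without Rpl39l1. In the bone marrow it reached 9.14 with Rpl39l1 at a median of 2.94. There Ldhc averaged 8.82, but 1 of the 6 markers was called and their median difference was -0.21. In the adipose tissue the summed level reached 9.03 at a median of 5.36, with Prm1 at up to 8.86. No Rpl39l1 value of the adipose tissue was above 2.80. The epididymis had a summed level of 11.61 to 13.16 and Rpl39l1 at 7.48, 5.78 and 3.43. In the uterus Rpl39l1 measured 6.94, 2.68, 4.40, 3.87 and 3.93, the highest in replicate 1 and the lowest in replicate 2, and the summed level ran from 5.45 to 13.19 with the same arrays at its ends. One thyroid array had the germ cell marker Prm1, a sperm protamine, at 10.38. Their part in these values was not tested.

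Rps4y2, a paralogue of Rps4x that lies on chromosome 4 in the assembly, was highest in the testes as well. The testes arrays measured 10.24, 10.43, 9.87 and 10.25, all above the jejunum, the next organ, which ranged from 6.84 over 7.19 to 7.85. The difference in the testes was 4.94 (SE 0.28, adjusted p = 3.26e-42). The jejunum, thyroid, ileum, stomach, colon and duodenum were also called, with 2.00, 1.68, 1.58, 1.34, 1.32 and 1.32, and their arrays overlapped from each organ to the next in order. The brain, at 2.22 to 3.57, and the gastrocnemius, at 2.76 to 3.92, were lowest, with differences of -2.60 and -2.16 but a reference mean under the expression limit. Katnip, with 0.832, Poc1b, with 0.797, and Tdrd7, with 0.787, had the organ patterns most like it. Probe sequences were not analysed here, so how far a paralogue probeset also reads its parent mRNA is not known.

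Rps27l, a paralogue of the small-subunit protein Rps27 that p53 is known to induce, was low in the brain. The 10 brain arrays ranged from 2.46 over a median of 3.43 to 4.23, and those of the heart from 3.94 to 7.21 and of the testes from 5.49 to 6.90. The difference in the brain was -4.04 (SE 0.17, adjusted p = 6.11e-59). At the other end the pancreas ranged from 8.15 over 8.99 to 9.68, the bone marrow from 7.96 to 8.95, the liver from 7.51 to 9.38 and the uterus from 8.07 to 8.95. All 4 were called, with 1.74, 1.30, 1.27 and 1.29, and overlapped with their neighbours in order. Mindy1, with 0.731, Tars1, with 0.725, and Surf4, with 0.719, were most like it over the 31 organs.

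**Figure D4:**
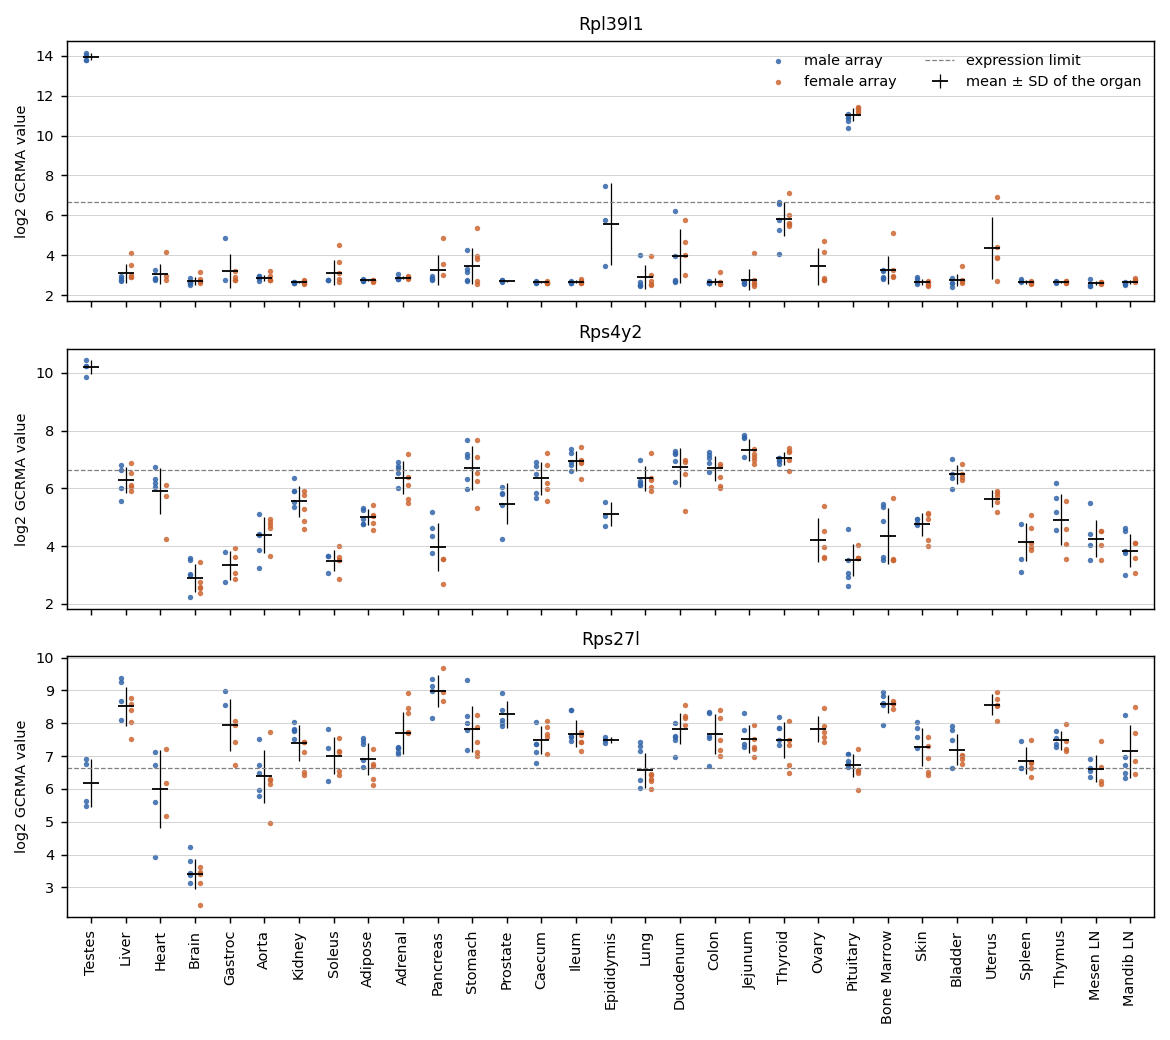
Levels (log2, GCRMA) of the paralogues Rpl39l1, Rps4y2 and Rps27l in every array of the 31 organs; each point is 1 array (blue male, orange female), black marks are the mean and SD of the organ, and the dashed line is the expression limit. Rpl39l1 was above 10 in testes and pituitary, and Rps27l was at most 4.23 in the brain.

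Rpl7l1, a nucleolar relative of Rpl7 with a part in making the large subunit, varied less. Its first probeset was highest in the bone marrow, where 9 arrays lay between 9.54 and 9.96, above those of the uterus at 8.94 to 9.27, and differed by 1.46 in the mean of the bone marrow (1.46 also without its arrays at odds with their labels). Its second probeset was highest in the thymus, between 9.82 and 10.54, with a difference of 1.02, and lower in the pancreas (-1.01). The first probeset was lower in the pituitary (-1.09). Shkbp1, Necap2 and Rcc2, with 0.855, 0.836 and 0.83, were most like the first, and Commd2, Api5 and Aqr, with 0.858, 0.854 and 0.819, most like the second. Rpl26l1 was near the lower end of the scale everywhere, with its highest mean, 3.44, in the thymus.

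With these, 3 of 52 members were higher in the bone marrow (8.87% of all), Rpl3l, Rpl7l1 and Rps27l, none of them a core member, and without the arrays at odds with their labels the count was also 3, with Rps27l at 1.27. In the uterus 3 were higher (8.16%), the dim probesets of Rps24 and Rpl7 and Rps27l. The dim probeset of Rpl7 ranged from 7.13 over 7.39 to 7.51 in the uterus and from 7.27 over 8.79 to 9.67 in the pancreas, whereas the brain ranged from 3.19 to 5.16 and the adrenal from 3.48 to 5.32. The differences were 1.11 in the uterus (SE 0.38, adjusted p = 0.00831) and 2.49 in the pancreas (SE 0.33, adjusted p = 3.62e-12). The bright probeset of Rpl7 was called in neither.

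Other genes of translation were set beside the core members. Of 18 elongation factors and other genes with TOP mRNAs 13 were measured, and their relative level followed the core members with an r of 0.92 over the 31 organ means. In the mandibular lymph node 3 of these were higher (8.27% of all probesets) and none lower. In the liver none were higher and 3 lower (5.93%), and in the heart 1 was higher (8.51%) and 4 lower (4.88%). The 35 genes of ribosome biogenesis, which act in the nucleolus, had an r of 0.71. Beside these, r was also 0.71 for the median over all expressed probesets, and 0.87 for that over bright probesets outside the 52 members. Of the 35 biogenesis genes 19 were higher in the mandibular lymph node (8.27% of all probesets) and 16 in the thymus (11.9%). In the uterus 15 were higher (8.16%), in the bone marrow 13 (8.87%) and in the mesenteric lymph node 8 (7.63%). None were lower in any of these organs. In the brain 11 were lower (8.35%) and none higher. In the testes 5 were higher (12.6%) and 9 lower (13.6%).

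Cell division followed less closely and parted from the set in the testes and in other organs. Its 10 genes had an r of 0.50 with the core members. All 10 were higher in the thymus (11.9% of all probesets) and in the bone marrow (8.87%), and 9 in the mandibular lymph node (8.27%). In the testes, where the core level was lowest, 7 were higher as well (12.6%). In the bladder, where the core level was high, none were higher and 2 were lower (1.28%). Where the core level was close to 0, 9 were higher in the jejunum (7.61%), 7 in the ileum (7.95%) and 7 in the duodenum (7.09%). Of 12 measured regulators of ribosomal protein synthesis, 6 were lower (13.6% of all probesets) and 1 higher (12.6%) in the testes. Myc differed by -3.88, the translation repressor Eif4ebp1 by -3.67 and the S6 kinase Rps6kb1 by -2.41, against 1.36 for Mtor. Mitochondrial ribosomal proteins went another way in part of the organs. The level of 73 such genes had an r of -0.42 with the core members, and 33 of them were higher in the heart (8.51% of all probesets), 32 in the aorta (6.77%), 29 in the soleus (8.56%) and 25 in the gastrocnemius (8.27%), with none lower. Without the arrays at odds with their labels the heart had 33 and the aorta 30. In the brain, where the core level was low as well, 14 were lower (8.35%) and none higher. In the testes 17 were lower (13.6%) and 10 higher (12.6%). The pancreas had 26 lower (8.88%), the lung 21 (1.94%) and the pituitary 17 (5.87%). These lists are described by their counts alone.

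Males and females were compared within each of the 26 somatic tissues, the question for which the study was made. The sexually dimorphic (SDE) probesets were those expressed in at least 1 sex with more than a 2-fold difference and an adjusted p below 0.05. Of 52 members 2 were SDE in any tissue, beside 7.00% of all probesets, and neither was a bright core probeset.

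The dim probeset of Rpl7 was higher in the male kidney. Males measured 6.87, 7.18, 6.63, 6.91 and 7.04 and females 6.48, 4.30, 4.99, 5.50 and 4.88. The sexes did not overlap, and the difference was 1.70 (SE 0.36, adjusted p = 0.0170). In 2 of 22 alternatives it was not called. Rps27l was lower in the male adrenal. Males measured 7.26, 7.14, 7.27, 7.05 and 7.26 and females 7.73, 8.91, 8.48, 7.69 and 8.31. There too the sexes did not overlap, and the difference was -1.03 (SE 0.22, adjusted p = 0.0335). However, 12 of 22 alternatives did not call it, and the adjusted p-values over all 22 ran from 0.0131 to 0.0912.

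Smaller differences were found in the pituitary. There 17 of 52 members had an adjusted p under 0.05, all lower in males, beside 3.00% of all probesets lower in males at that limit, with differences from -0.74 to -0.13. Rplp0 measured 13.12, 13.06, 13.12, 13.06 and 13.19 in males and 13.87, 13.82, 13.82, 13.93 and 13.81 in females. These groups lay apart by more than either spread, and the difference was -0.74 (SE 0.04, adjusted p = 1.77e-05). Rpl22 differed by -0.47 (adjusted p = 0.0111), Rpl24 by -0.37 (adjusted p = 0.000828) and Rps23 by -0.23 (adjusted p = 0.00219). The core relative level was 0.15 to 0.19 in males and 0.23 to 0.36 in females, without overlap. The count was 10 without the male arrays numbered 2 and 4 in 1 limma fit over all groups, with the replicate number as a block or at an adjusted p of 0.01.

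In the duodenum 12 members had an adjusted p under 0.05, all lower in males, beside 3.31% of all probesets lower in males. Rpl21 differed by -0.63 (SE 0.13, adjusted p = 0.0234), Rpl35a by -0.59 and Rpl7 (bright probeset) by -0.57. The core relative level ran from -0.20 to 0.10 in males and from 0.02 to 0.43 in females and overlapped through female replicate 1, at 0.02. Without the female arrays numbered 1 the count was 33, without those numbered 2, 3 or 5 it was 0, and without the male arrays numbered 1, 2, 3 or 4 it was 2, 2, 1 and 3. Markers of the exocrine pancreas were high in both sexes: all 5 listed were measured, and their summed level was 14.29 to 15.81 in males, at a median of 14.69, and 12.99 to 15.18 in females, at a median of 14.30, with overlap. Their part in the result was not tested.

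**Figure D5:**
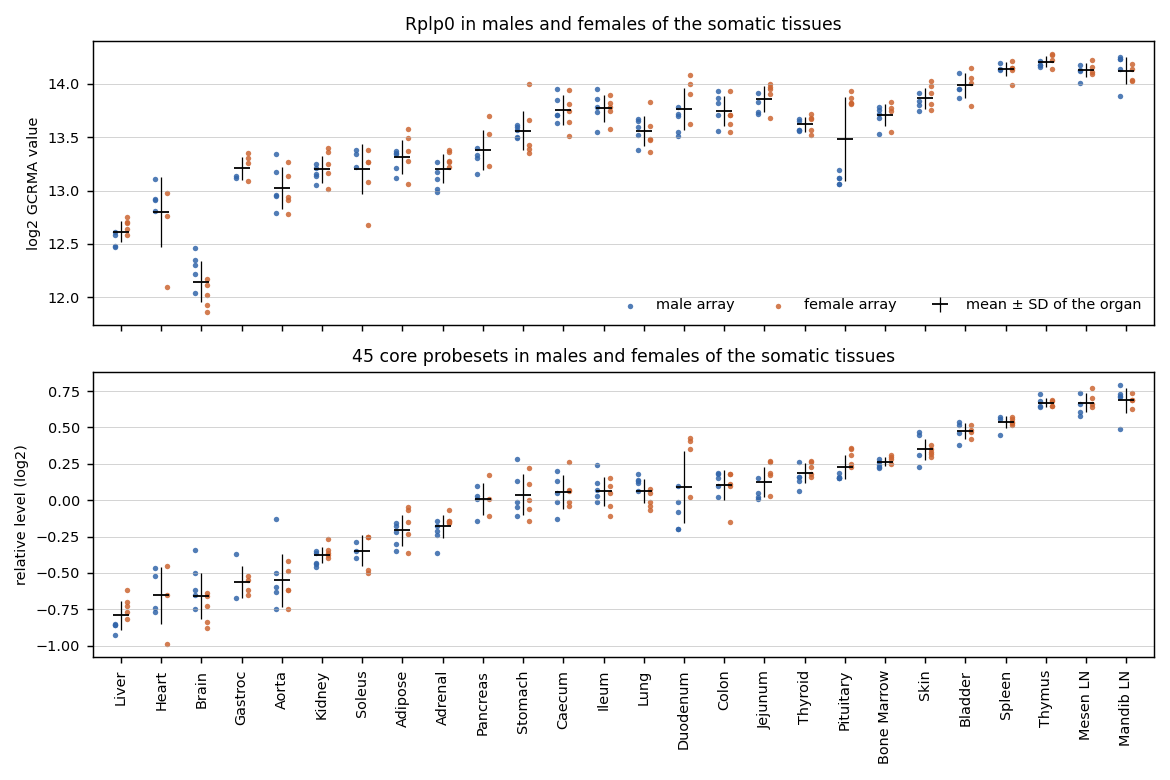
Level of Rplp0 (log2, GCRMA) above and relative level of the 45 core probesets (log2 units) below in the somatic tissues; each point is 1 array (blue male, orange female), and black marks are the mean and SD of the tissue over both sexes. Rplp0 in the pituitary lay at 13.06 to 13.19 in males and 13.81 to 13.93 in females.

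Beyond these, 6 members passed an adjusted p of 0.05 in the adrenal (4.87% of all probesets), 5 in the kidney (11.6% of all) and 1 in the jejunum (Rpl4, -0.32; 0.158% of all), and none in the other 21 somatic tissues. In the aorta, heart and bone marrow, which hold the arrays at odds with their labelled sex, no probeset of the array passed. The lack of members there is therefore no result about the set. The median difference of the core members between males and females lay between -0.35 (duodenum) and 0.17 (brain). In the brain the core relative level was -0.75 to -0.34 in males and -0.88 to -0.64 in females, and the sexes overlapped. Whether the sex difference of a member changed from tissue to tissue was tested as an interaction over the 26 tissues, which was past an adjusted p of 0.05 in 20 of 52 members, beside 27.1% of all probesets. The lowest adjusted p was that of Rplp0, 2.49e-07. Without the arrays at odds with their labels there were 24. Leaving out 1 replicate number gave 8 to 28 members, and the numbers without which it was 13 or less were male 1 and 4 and female 3, 4 and 5.

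Testes and ovary were compared directly as the gonads of the sexes. In the testes 23 of 52 members were lower than in the ovary (15.8% of all probesets) and 2 were higher (12.4%). The arrays of the testes are those of the organ comparison above, so that the members called are largely shared by design. Rpl13a averaged 11.11 in testes and 13.86 in ovary, a difference of -2.75 (SE 0.15, adjusted p = 1.2e-43), and Rpl6 11.09 and 13.48, a difference of -2.40 (SE 0.09, adjusted p = 3.81e-69). The higher members were Rpl39l1, by 10.50, and Rps4y2, by 5.98. Of the core members, Rpl41 and Rps15 differed least among the bright probesets that were measured, by -0.33 and -0.43.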

How the data were processed

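Deposited values of 256 arrays (RAE230_2) were used, which the authors had summarised per probeset with GCRMA on a log2 scale. The sources used here give neither its version nor which arrays were normalized together. No further log was taken. Organ, sex and replicate came from the labels. Members and lists were chosen with earlier results of these data known.

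limma 3.58.1 (R 4.3.3) fitted organ and sex groups over all 31042 probesets, with sexes weighted equally and Benjamini-Hochberg adjustment. The sexes were compared in 1 fit per tissue. The methods' t-test was an alternative, beside other scalings, thresholds, subsets and left-out replicates. The steps were tested on simulated data. A replicate number was taken to mark 1 animal across most organs, because 5 rats of each sex were described. Numbers in the adrenal, bone marrow, pituitary and ovary were treated as a separate numbering. They were matched among these organs and not with the others. Deviations of arrays taken as 1 animal correlated at a median of 0.059, against -0.009 for different animals of 1 sex. The number of arrays limits precision.

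Genes named are the paralogues, members past 4-fold, the extremes of the highest and lowest organs, SDE members, known reference genes and, for each called paralogue, the 3 probesets most like it. Of 52 members 50 had a current symbol.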

Additional observations from a re-analysis of the deposited data

Results flagged for a closer look

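In groups of 4 or 5 arrays, single arrays stood apart from their group. For the core relative level this was so in 5 of 51 groups: adrenal female 5 at -0.07, colon female 2 at -0.15, liver male 1 at -0.93, mandibular lymph node male 2 at 0.49 and pituitary male 3 at 0.19. For named members it was so in 3 of 41 groups, with Rpl3l at 11.96 in heart male 5, which is also an array at odds with its labelled sex, Rps4y2 at 7.09 in jejunum male 1 and the dim probeset of Rps24 at 8.73 in mesenteric lymph node female 4. Chance gives about 1 such array in 20 groups. The sex difference itself changed between tissues for Rplp0 (interaction, adjusted p = 2.49e-07), Rpl24 (adjusted p = 0.000716) and Rps27l (adjusted p = 0.0492).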

How the results depend on the processing

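Directions of the organ differences named above were kept in 1104 of 1122 comparisons with an alternative, and the 18 that turned were of the dim probesets of Rpl14 and Rpl30, close to 0. In this section, counts for the duodenum and pituitary are of members lower in males than females at the adjusted p limit. Quantile normalization gave 21 members lower in the liver and 31 with an interaction. It gave 1 higher in the mandibular lymph node, mesenteric lymph node and thymus each. With it the count of members higher in any organ, as a share of that count plus the count lower in any organ, went from 29.3% to 19.5%. Centring gave 18 lower in the brain, 1 in the liver and 1 higher in the mesenteric lymph node. It also gave 5 lower in males in the duodenum, 1 SDE and 12 with an interaction. Without the expression limit 12 were lower in the brain, 5 in the soleus, and 5 higher in the thymus. At 1.5-fold 42 were higher in any organ, 5 in the bone marrow, 32 in the mandibular and 30 in the mesenteric lymph node, 32 in the thymus and 13 in the uterus, and lower were 28 in the brain, 21 in the gastrocnemius, 29 in the heart, 37 in the liver, 8 in the soleus and 32 in the testes, with 5 SDE. Male arrays alone gave 2 in the mesenteric lymph node, and female arrays 14 in the brain, 11 in the heart and 1 in the thymus. Without shared probesets 2 were left in the gastrocnemius. The methods' t-test gave 4 in the duodenum and 1 SDE, adjustment over expressed probesets 27 in the duodenum, an adjusted p of 0.01 gave 0 in the duodenum, 4 in the pituitary and 0 SDE, and 1 limma fit over all groups gave 29 and 4.

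The animal as a replicate block (consensus correlation 0.013) left 12 higher and 29 lower members in any organ, and changed no other call. The replicate number as a block within a tissue, where it pairs different animals of the sexes, gave 0 members in the duodenum, 4 in the pituitary and 0 SDE. Leaving out each replicate number gave 11 to 12 higher and 26 to 30 lower in any organ, 3 to 3 in bone marrow, 6 to 10 in brain, 3 to 4 in gastrocnemius, 3 to 9 in heart, 7 to 9 in liver, 3 to 5 in the mandibular and 4 to 5 in the mesenteric lymph node, 3 to 3 in soleus, 16 to 21 in testes, 2 to 3 in thymus, 3 to 3 in uterus, 0 to 33 in duodenum, 10 to 14 in pituitary, 1 to 2 SDE, 8 to 28 with an interaction, and 22 to 23 lower and 2 to 2 higher in testes than ovary. The values that turned were, for Rpl14, -0.03 in the heart (quantile, and male arrays alone), 0.10 in the testes (centring), -0.08 in the mandibular lymph node (male arrays) and 0.00 in the thymus (female arrays), and on leaving out a replicate -0.07 to 0.22 in the mandibular lymph node, -0.01 to 0.05 in the thymus and 0.00 to 0.03 in the heart. For Rpl30 they were 0.00 (quantile) and -0.01 (male arrays) in the heart, 0.14 (centring) and 0.00 (male arrays) in the testes and 0.02 in the thymus (centring), and -0.03 to 0.01 in the testes on leaving out a replicate. The span of the core level between organs was 2.86 to 3.24-fold, and the lower end was the liver with 1 probeset per gene. With core members expressed in all organs, chosen after seeing the data, it was 3.04-fold. Array numbers and signal over background limit the dim probesets. The cause of these changes was not tested.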
